A study of Homo sapiens with 8 samples.

Results

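The metallothioneins and the zinc exporter SLC30A1 were followed as 8 genes across the 4 conditions of the experiment. The members were chosen by name, as the rows MT1A, MT1E, MT1F, MT1G, MT1M, MT1X, MT2A and SLC30A1 of the count and FPKM tables, and all 8 were found among the 25369 genes listed. RNA-seq had been done on LX-2, a human hepatic stellate cell line that was immortalized, from the liver cell type that turns into a matrix-producing myofibroblast in fibrosis. The cells had been grown on polyacrylamide hydrogels coated with fibronectin, either soft (2 kPa) or stiff (40 kPa), for 2 or 4 days, and each of the 4 conditions had 2 libraries. The labels name no genetic change and no added agent in any group, and the groups are told apart by matrix and day. All values come from a single immortalized line. The labels give replicate numbers but do not say whether the libraries came from separate cultures. The paper describes 2 independent experiments for each group of its RNA-seq heatmaps. The p-values measure only the spread between these libraries of a single line. In bulk RNA a normalised level cannot tell fewer cells that express a gene from less RNA in each cell.

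Metallothioneins are small proteins packed with cysteines, through which they bind zinc and copper and buffer the free metal in the cell. Free zinc activates the transcription factor MTF1, which binds metal response elements in the promoters of metallothionein genes and of SLC30A1. SLC30A1, also called ZnT1, moves zinc out of the cytosol across the plasma membrane, so its product lowers cell zinc where metallothioneins hold it. Metallothionein genes also respond to glucocorticoids, copper, cadmium and oxidative stress, and the liver is a main site of their expression.

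The 7 metallothionein genes lie together on chromosome 16 (GRCh37, GENCODE v44 annotation) within 75.6 kb, from base 56642496 to base 56718108, in the order MT2A, MT1E, MT1M, MT1A, MT1F, MT1G and MT1X. MT1G is on the minus strand and the other members of the cluster are on the plus strand. Each has 3 exons. SLC30A1 is on chromosome 1 from base 211744910 to base 211752503, on the minus strand, with 2 exons. MT1X shares exonic sequence with another gene annotated on the same strand, and no exon of the other 7 members overlaps another gene in this annotation.

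The coding sequences of the 5 metallothioneins with enough counts to be tested are shown since the genes differ at few bases, and capitals mark the cysteine codons. They were read from the GRCh37 genome with the GENCODE annotation, from the transcript with 3 coding exons, and end with the stop codon.
MT2A: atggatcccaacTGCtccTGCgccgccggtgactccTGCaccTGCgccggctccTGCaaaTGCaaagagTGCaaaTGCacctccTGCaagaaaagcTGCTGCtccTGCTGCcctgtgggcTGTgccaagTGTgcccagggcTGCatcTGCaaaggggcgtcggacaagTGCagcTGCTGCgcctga
MT1E: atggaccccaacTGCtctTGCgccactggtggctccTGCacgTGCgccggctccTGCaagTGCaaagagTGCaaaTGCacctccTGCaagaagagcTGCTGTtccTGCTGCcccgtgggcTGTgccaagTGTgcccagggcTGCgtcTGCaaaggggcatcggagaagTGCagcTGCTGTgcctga
MT1X: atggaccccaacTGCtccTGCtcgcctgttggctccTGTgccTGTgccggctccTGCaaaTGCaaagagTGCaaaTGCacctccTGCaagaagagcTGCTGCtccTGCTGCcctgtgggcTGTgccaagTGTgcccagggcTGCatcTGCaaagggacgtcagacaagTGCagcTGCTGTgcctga
MT1F: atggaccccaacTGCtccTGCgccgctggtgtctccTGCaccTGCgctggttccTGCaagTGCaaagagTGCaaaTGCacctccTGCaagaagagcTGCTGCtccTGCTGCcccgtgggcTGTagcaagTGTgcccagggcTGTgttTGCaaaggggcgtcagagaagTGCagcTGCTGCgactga
MT1M: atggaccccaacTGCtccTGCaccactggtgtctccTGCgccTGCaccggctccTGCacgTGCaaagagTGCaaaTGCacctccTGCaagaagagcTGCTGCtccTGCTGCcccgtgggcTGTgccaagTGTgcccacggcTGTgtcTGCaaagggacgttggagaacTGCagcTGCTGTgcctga
Each of the 5 holds 61 codons before the stop, of which 20 encode cysteine. Over all 7 metallothionein members, the coding sequences were 88.7% (MT1F and MT1X) to 94.6% (MT1A and MT1E) identical in pairs.

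How much of each transcript could give a read that also fits elsewhere was counted in windows of fixed length that occur without a mismatch in another gene or at another place in the genome. In windows of 50 bases, the shared part was 53.2% of the MT1X transcript, 21.3% of MT1G, 18.6% of MT1M, 11.1% of MT2A, 6.12% of MT1F, 5.76% of MT1A and 5.34% of MT1E, and 0% of SLC30A1. In windows of 100 bases only MT1X retained shared windows (22%), and in windows of 150 bases 6.67% of its windows were shared. Of the 189 shared windows of 50 bases in MT1X, 117 fall in the overlapping gene and 47 in MT1G. A read from the overlap need not fit another place in the genome, and is ambiguous only if the authors' annotation holds that gene. The read length and the rule used for reads that fit several places are not given in the sources used here. How much less certain the count of MT1X is than those of MT1G and MT1M is thus not known, and SLC30A1 is free of this limit.

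**Figure D1:**
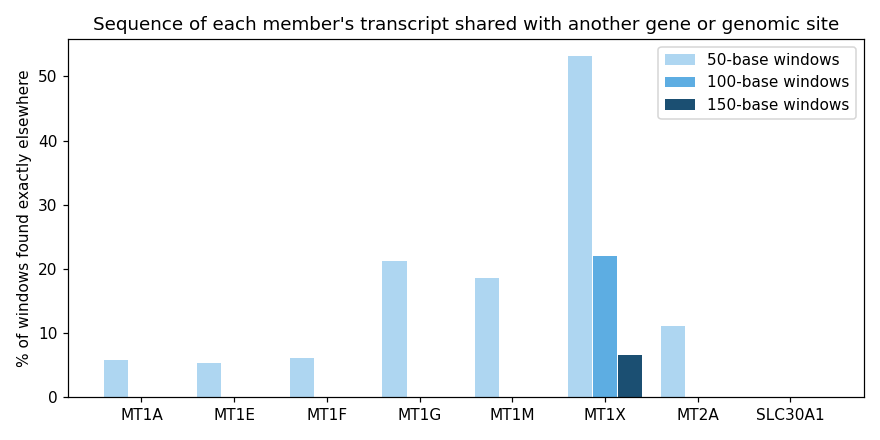
The bars give, for each member's transcript, the percent of all windows of 50, 100 or 150 bases that occur exactly in another gene or at another genomic site. MT1X stands highest at every length (53.2%, 22% and 6.67%), the other metallothioneins share sequence only at 50 bases, and SLC30A1 shares none.

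Promoters are shown for the 3 members that have an entry in the RefSeq promoter table (GRCh38.p14). They serve to mark metal response elements, and control of these genes by MTF1 was not tested. Each sequence is the 250 bases before the annotated start, on the gene's strand, and capitals mark the core of the metal response element (TGCACNC or TGCGCNC, either strand) and the AP-1 site TGACTCA (either strand). MT1A, MT1E, MT1F, MT1G and MT1M have no entry.
MT2A, chr16:56608334-56608583, plus strand: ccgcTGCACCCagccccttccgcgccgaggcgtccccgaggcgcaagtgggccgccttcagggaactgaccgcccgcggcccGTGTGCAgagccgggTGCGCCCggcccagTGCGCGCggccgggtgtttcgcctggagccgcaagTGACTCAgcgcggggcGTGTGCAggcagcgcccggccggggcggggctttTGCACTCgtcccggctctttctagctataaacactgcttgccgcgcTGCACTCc
MT1X, chr16:56682220-56682469, plus strand: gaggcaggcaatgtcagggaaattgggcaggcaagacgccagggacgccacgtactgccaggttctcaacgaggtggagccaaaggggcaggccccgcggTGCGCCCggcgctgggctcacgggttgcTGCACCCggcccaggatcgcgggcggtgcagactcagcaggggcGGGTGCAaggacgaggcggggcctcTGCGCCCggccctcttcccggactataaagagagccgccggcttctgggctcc
SLC30A1, chr1:211579162-211579411, minus strand: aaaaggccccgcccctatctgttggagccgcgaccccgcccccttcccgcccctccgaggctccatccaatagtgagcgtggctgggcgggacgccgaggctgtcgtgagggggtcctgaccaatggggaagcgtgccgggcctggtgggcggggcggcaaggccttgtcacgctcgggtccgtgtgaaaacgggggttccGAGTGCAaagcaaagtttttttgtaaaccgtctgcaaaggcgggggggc
The MT2A window holds 7 matches to the metal response core, the MT1X window 4 and the SLC30A1 window 1. Of 27305 promoters searched over the same 250 bases, 24.7% hold at least 1 match, 0.366% at least 4 and 0.033% at least 7. The AP-1 site occurs once in the MT2A window, overlapping no metal response core, in none of the other 2 windows and in 4.16% of all promoters. These matches describe letters in a window and were not tested for binding.

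The libraries held between 19955975 and 27263935 counts. Of 12 stellate or myofibroblast markers, 9 reached 1 CPM (a count scaled to a common library size) in every library, and their summed level was 3909 to 8893 CPM. Of 7 hepatocyte markers, 6 had a median under 1 CPM and the list summed to 4.45 to 10.6 CPM. The 5 endothelial markers summed to 1.89 to 4.52 CPM, the 6 immune markers to 89.7 to 126.6 CPM and the 4 cholangiocyte markers to 32.2 to 71.2 CPM. Of the immune sum CD68 gave 83.8 to 119.3 CPM, while CD3E and CD163 were at 0 in every library and MARCO did not exceed 0.042 CPM. Of the cholangiocyte sum SOX9 gave 18.7 to 55.1 and KRT7 9.38 to 19.1 CPM, while EPCAM and KRT19 stayed under 1 CPM. The 2 libraries of the stiff matrix at day 4 differed from each other more than those of any other condition, with a median difference per gene of 0.467 on the log2 CPM scale in either direction against 0.0942 to 0.207 elsewhere. All CPM values were scaled by TMM factors.

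Of the 8 members, 6 passed the filter on low counts and were tested. MT1A had 1 to 6 counts per library. MT1G had 5 and 4 counts on the soft and 6 and 3 on the stiff matrix at day 2, then 0 and 0 on the soft and 0 and 1 on the stiff matrix at day 4. A count of 0 in these libraries allows up to 3 counts, which is 0.106 to 0.173 CPM. MT1G at day 4 was thus at or under the limit of detection, and neither gene entered the main test. Intervals and limits of this kind cover counting error only.

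Levels were compared between genes as FPKM, which divides by gene length. MT2A was the highest member in every library, with 869.8 to 1896 FPKM and a mean of 1119 that ranked 37 among the 25369 genes. MT1E followed with 55.2 to 142.6 FPKM, then MT1X with 23.4 to 68.9 FPKM and MT1F with 5.61 to 41.4 FPKM, and this order held within each of the 8 libraries. MT1M (6.29 to 13.7 FPKM) and SLC30A1 (7.08 to 10.9 FPKM) had overlapping ranges. MT1F also overlapped both over all libraries, and lay below MT1M on the stiff matrix at day 2 and above it at day 4. MT1A did not exceed 0.557 FPKM and MT1G did not exceed 0.635 FPKM.

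MT2A gave most of the metallothionein reads. It made up 86.6% and 86.3% of the counts of the 7 genes on the soft matrix at day 2, 89.7% and 89.4% on the stiff matrix at day 2, 82.7% and 82.1% on the soft matrix at day 4, and 84.2% and 86.5% on the stiff matrix at day 4. The 95% Wilson intervals ran from 85.7% to 87.2% for the soft and from 88.8% to 90.3% for the stiff libraries of day 2, and from 81.4% to 83.3% for the soft and from 83.4% to 87% for the stiff libraries of day 4. The share of MT2A was thus highest in both stiff libraries of day 2 and lowest in both soft libraries of day 4, a ratio that does not depend on how libraries are scaled. The 7 genes together took 0.0422% to 0.081% of a library's counts.

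The summed level of the 7 metallothioneins was 529.9 and 422 CPM on the soft and 422.4 and 435.4 CPM on the stiff matrix at day 2, and 660.4 and 543.8 CPM on the soft and 463.2 and 931.5 CPM on the stiff matrix at day 4. The highest and the lowest sum of day 4 were both on the stiff matrix.

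MT2A, the most widely expressed metallothionein, was at 459 and 364.2 CPM on the soft and 379 and 389.1 CPM on the stiff matrix at day 2. At day 4 it was at 545.8 and 446.2 CPM on the soft and 389.9 and 805.3 CPM on the stiff matrix. One stiff library of day 4 thus lay within the range of day 2 and the other was the highest of all 8.
MT1E, the second most abundant form, was at 46.2 and 37.9 CPM on the soft and 28 and 29.1 CPM on the stiff matrix at day 2. At day 4 it was at 66.9 and 61.3 CPM on the soft and 45 and 73.1 CPM on the stiff matrix. The stiff libraries of day 2 were below both soft libraries of that day, and the stiff libraries of day 4 lay on both sides of the soft ones.
MT1X was at 16 and 12.5 CPM on the soft and 9.49 and 11.5 CPM on the stiff matrix at day 2, and at 27.5 and 19.9 CPM on the soft and 15.8 and 28.2 CPM on the stiff matrix at day 4. It had the same order of libraries as MT1E.
MT1F was at 4.82 and 3.63 CPM on the soft and 2.48 and 2.76 CPM on the stiff matrix at day 2. At day 4 it was at 14.2 and 10.8 CPM on the soft and 9.09 and 18.5 CPM on the stiff matrix. All 4 libraries of day 4 were above all 4 of day 2.
MT1M was at 3.66 and 3.42 CPM on the soft and 3.02 and 2.76 CPM on the stiff matrix at day 2, and at 5.93 and 5.28 CPM on the soft and 3.34 and 6.11 CPM on the stiff matrix at day 4. The lower stiff library of day 4 fell within the range of day 2 for this gene.
SLC30A1 was at 18.7 and 18.6 CPM on the soft and 20.2 and 22 CPM on the stiff matrix at day 2. At day 4 it was at 14.4 and 20.2 CPM on the soft and 20.3 and 14.6 CPM on the stiff matrix. Its 2 lowest libraries were those in which MT1E, MT1X, MT1F, MT1M and MT2A were highest, 1 on each matrix at day 4.

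**Figure D2:**
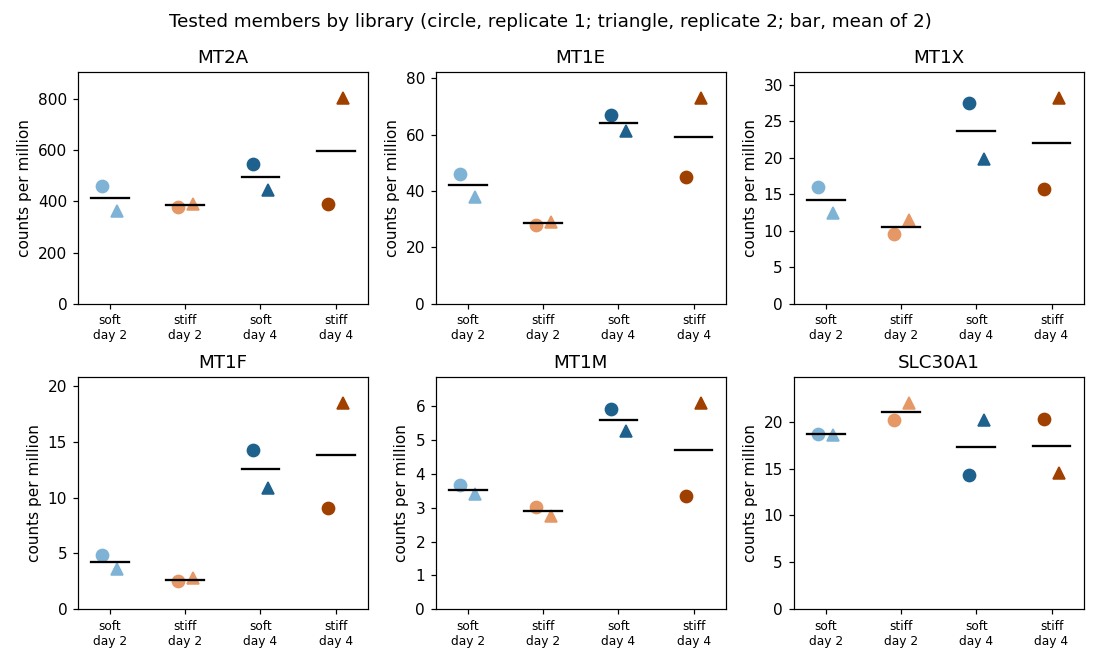
Each panel shows the CPM of a tested member in the 8 libraries, with a circle for replicate 1, a triangle for replicate 2 and a bar for the mean of the 2. MT1F separates day 4 (9.09 to 18.5 CPM) from day 2 (2.48 to 4.82 CPM), and the stiff libraries of day 4 lie far apart, as in MT2A at 389.9 and 805.3 CPM.

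The change from day 2 to day 4 was asked separately on each matrix. On the stiff matrix MT1F rose 5.24-fold, MT1X 2.09-fold and MT1E 2.07-fold, so that 3 of the 6 members tested rose and none fell. On the soft matrix 1 of the 6 rose, MT1F, by 2.96-fold. MT2A and SLC30A1 passed the test on neither matrix. Of all 14570 genes tested, 27.6% were called on the stiff and 27.4% on the soft matrix in either direction, which is the share to set beside 3 of 6 and 1 of 6.

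In the edgeR fit, with p-values adjusted by Benjamini and Hochberg over all genes, the log2 fold change on the stiff matrix was 2.39 for MT1F (SE 0.36, adjusted p = 0.00454), 1.07 for MT1X (SE 0.303, adjusted p = 0.0353) and 1.05 for MT1E (SE 0.23, adjusted p = 0.0148). Those of MT1M (0.70, SE 0.293, adjusted p = 0.112) and MT2A (0.64, SE 0.31, adjusted p = 0.159) did not pass, nor did that of SLC30A1 (-0.27, SE 0.217, adjusted p = 0.379). On the soft matrix it was 1.56 for MT1F (SE 0.34, adjusted p = 0.0145), and 0.73 for MT1X (adjusted p = 0.102), 0.66 for MT1M (adjusted p = 0.117), 0.61 for MT1E (adjusted p = 0.0821) and 0.27 for MT2A (adjusted p = 0.546) did not pass. SLC30A1 was at -0.11 (SE 0.216, adjusted p = 0.732), with a 95% interval from -0.61 to 0.39.

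At an unadjusted p under 0.05, 4 members were higher at day 4 on each matrix, MT1E, MT1F, MT1M and MT1X, where 41.4% of all genes on the stiff and 41% on the soft matrix passed this cutoff in either direction. The libraries of the days did not overlap, with day 4 higher, for 5 metallothioneins on the stiff matrix (31.6% of all genes) and for 4, all but MT2A, on the soft matrix (38.5% of all genes). The median log2 fold change of the 5 tested metallothioneins was 1.05 on the stiff and 0.66 on the soft matrix, against 0.028 and 0.016 over all genes.

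DESeq2 called the same numbers, 3 members on the stiff (29.6% of all genes) and 1 on the soft matrix (29.4%). When only the 4 libraries of each matrix were fitted, 4 members passed on the soft matrix (50.7% of all genes) and none on the stiff matrix (0% of all genes), and without replicate 1 of the stiff matrix at day 4 all 6 members tested passed on the stiff matrix (52.1% of all genes), SLC30A1 with a fall of 0.54 on the log2 scale. Leaving out replicate 1 or 2 of the soft matrix at day 2, or replicate 1 of the soft matrix at day 4, ended the call of MT1F on the soft matrix, in fits that called 2.32%, 7.83% and 6.76% of all genes. Leaving out replicate 2 of the stiff matrix at day 2 left no member called on the stiff matrix (3.14% of all genes), where leaving out replicate 1 of that condition left 1 (5.74%). Leaving out replicate 1 or 2 of the stiff matrix at day 4 brought the number called on the soft matrix to 4, in fits that called 52.9% and 52.7% of all genes.

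**Figure D3:**
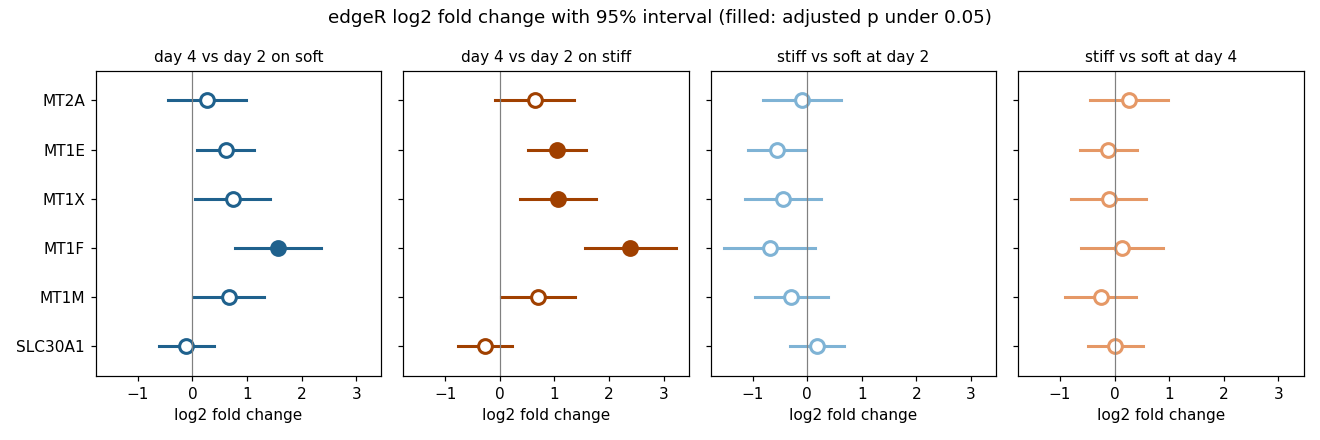
Points are edgeR log2 fold changes of the 6 tested members in 4 comparisons, lines are 95% intervals, and filled points have an adjusted p under 0.05. Filled points appear only for MT1F on the soft matrix (1.56) and for MT1F, MT1X and MT1E on the stiff matrix (2.39, 1.07 and 1.05), all for day 4 against day 2.

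The effect of the stiff matrix was then compared with the soft matrix at each day, the main comparison of the study. At day 2, 0 of 6 members passed the adjusted test, as did 0% of all genes. The 5 metallothioneins tested all had negative log2 fold changes, -0.69 for MT1F (SE 0.364, 95% interval -1.53 to 0.15), -0.56 for MT1E (SE 0.228, interval -1.09 to -0.032), -0.44 for MT1X (SE 0.301, interval -1.14 to 0.25), -0.29 for MT1M (SE 0.29, interval -0.96 to 0.38) and -0.10 for MT2A (SE 0.309, interval -0.81 to 0.61), each with an adjusted p of 1 by edgeR. SLC30A1 was at 0.18 (SE 0.215, interval -0.32 to 0.67).

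Only MT1E reached an unadjusted p under 0.05 at day 2 by edgeR, where 2.82% of all genes did. The stiff libraries lay below both soft libraries for MT1E, MT1F, MT1M and MT1X, as they did for 22.4% of all genes, and above both for SLC30A1, as for 25.7%. MT2A overlapped. The median of the 5 metallothioneins was -0.44, against 0.0081 over all genes. DESeq2 called 0 members at day 2 (0.191% of all genes), while a fit of the 4 libraries of day 2 alone called MT1E, MT1F and MT1X lower on the stiff matrix (4.67% of all genes).

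At day 4, 0 of 6 members passed between the matrices (0.247% of all genes), 0 reached an unadjusted p under 0.05 by edgeR (6.93% of all genes) and 0 had libraries that did not overlap (25.7% of all genes). The log2 fold changes ran from -0.25 for MT1M (95% interval -0.91 to 0.40) to 0.27 for MT2A (interval -0.45 to 0.98), with MT1E at -0.12, MT1X at -0.11, MT1F at 0.13 and SLC30A1 at 0.015 (interval -0.49 to 0.52). DESeq2 also called 0 (1.04% of all genes). Without replicate 1 of the stiff matrix at day 4, MT2A (0.71, adjusted p = 0.00177 by edgeR) and MT1F (0.57, adjusted p = 0.0377) passed as higher on the stiff matrix, in a fit that called 31.1% of all genes from a single stiff library. Without replicate 2, all 5 metallothioneins had negative values, from -0.34 to -0.74.

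Over the mean of both days 0 of 6 members passed (0.426% of all genes). By edgeR, 0 reached an unadjusted p under 0.05 (7.7% of all genes). DESeq2 called 0 members as well, where it called 73 genes higher and 145 lower of 14669. The log2 fold changes were -0.34 for MT1E (adjusted p = 0.717), -0.28 for MT1F, -0.28 for MT1X, -0.27 for MT1M, 0.084 for MT2A and 0.096 for SLC30A1.

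Whether the effect of stiffness differed between the days was tested as an interaction. None of the 6 members passed (0% of all genes) and 0 reached an unadjusted p under 0.05 by edgeR (1.95% of all genes). DESeq2 called 0 members as well, where it called 1 gene higher and 2 lower of 20029. The difference, the day 4 effect minus the day 2 effect, was 0.82 for MT1F (SE 0.488, 95% interval -0.31 to 1.95), 0.44 for MT1E, 0.37 for MT2A, 0.33 for MT1X, 0.037 for MT1M and -0.16 for SLC30A1, and all adjusted p-values were 1. Since this difference also compares the change over time between the matrices, the larger rise of MT1F on the stiff matrix was within the error. Without replicate 1 of the stiff matrix at day 4, 3 members passed (20.9% of all genes), again from a single stiff library of that day.

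The values at day 4 turned on its 2 stiff libraries. Replicate 2 exceeded replicate 1 by 2.07-fold in CPM for MT2A, 2.03-fold for MT1F, 1.83-fold for MT1M, 1.79-fold for MT1X and 1.63-fold for MT1E, and SLC30A1 had a ratio of 0.717. This difference ran with gene length over all genes, with a Spearman rho of -0.558 across 14570 genes, which are not independent replicates. The metallothioneins are short, with lengths of 404 (MT1X) to 506 bases (MT1E) among those tested as implied by count and FPKM, and SLC30A1 was counted over 2018 bases. For 310 other genes of 300 to 700 bases, the median difference between these libraries was 0.96 on the log2 CPM scale (25th to 75th percentile 0.32 to 1.26), where the metallothioneins had 0.70 to 1.05. For 7666 genes of at least 3000 bases the median was -0.31. The metallothioneins thus differed between the stiff libraries of day 4 about as much as other short genes did.

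In the other conditions some metallothioneins lay outside the middle range of short genes. The difference between replicates was -0.12 to -0.47 on the log2 CPM scale for them in the soft libraries of day 4, where short genes had a median of -0.33 (25th to 75th percentile -0.51 to -0.046) and SLC30A1 was at 0.49. It was -0.10 to -0.40 in the soft libraries of day 2, where short genes had a median of -0.12 (percentiles -0.31 to 0.071) and MT1F, MT1X and MT2A lay below the 25th percentile. In the stiff libraries of day 2, where the difference hardly ran with length (rho -0.0385), it was -0.13 to 0.27 against a median of 0.018 (percentiles -0.10 to 0.21), with MT1M below and MT1X above these percentiles.

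**Figure D4:**
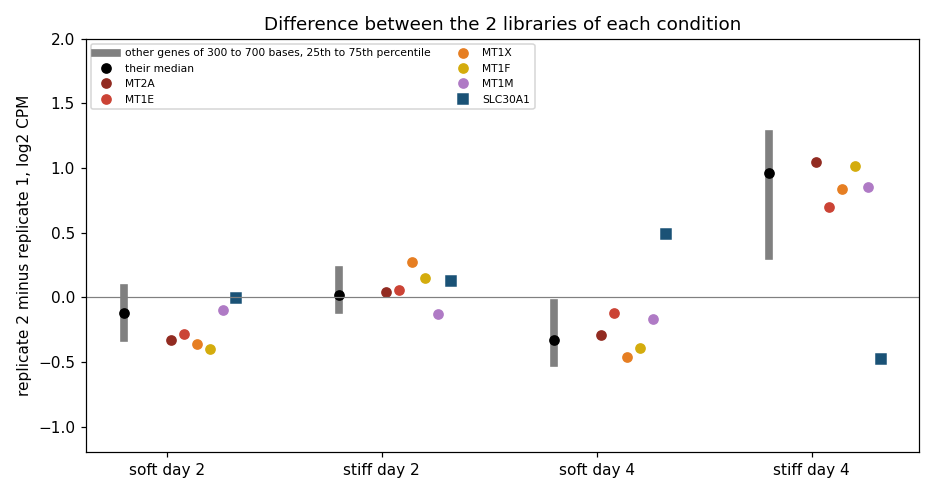
Coloured points give the difference in log2 CPM between replicate 2 and replicate 1 of each condition for the tested members, and grey bars give the 25th to 75th percentile of the 310 other genes of 300 to 700 bases with their median in black. At day 4 on the stiff matrix the metallothioneins lie at 0.70 to 1.05, within the bar of short genes, and SLC30A1 lies at -0.48.

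The comparisons were set beside the same short genes. From day 2 to day 4 the median log2 fold change of short genes was -0.053 on the soft (25th to 75th percentile -0.58 to 0.45) and 0.30 on the stiff matrix (-0.34 to 0.71). The metallothioneins had medians of 0.66 and 1.05, and the difference was not tested. MT2A on the soft (0.27) and MT2A (0.64) and MT1M (0.70) on the stiff matrix lay within these percentiles, and the other tested metallothioneins lay above them. Between the matrices at day 2 short genes had a median of -0.073 and the metallothioneins -0.44, and for the interaction short genes had 0.36 and the metallothioneins 0.37. With an offset for gene length in each library, a setting chosen after the data were seen and one that also removes any change tied to length, 5 of 6 members passed as higher at day 4 on the stiff matrix (41.3% of all genes) and 4 of 6 on the soft matrix (41.8% of all genes). In that fit MT1F was at 2.36 and 1.73, MT1X at 1.07 and 0.90 and MT1E at 1.01 and 0.77 on the stiff and soft matrix.

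Across the 8 libraries the 5 tested metallothioneins moved together. MT1A and MT1G are outside this set, and the few counts of MT1G were lower at day 4 (0 to 1) than at day 2 (3 to 6). Pearson's r of log2 CPM between pairs was 0.905 to 0.976 among MT1E, MT1F, MT1M and MT1X, and 0.781 to 0.847 between these and MT2A. With SLC30A1 it was -0.715 to -0.828 (Spearman's rho -0.476 to -0.762). These values describe 8 libraries in 4 conditions that share depth, scaling and the length trend. Whether reads shared between metallothioneins also enter the first set is not known, and MT1E shares no window of 50 bases with MT1X, MT1M or MT2A. The genes most like MT2A among 12038 others were CTSZ, a lysosomal protease (r = 0.995), PSMB6, a proteasome subunit (r = 0.992), CCDC12 (r = 0.992), RPL37, a ribosomal protein (r = 0.991) and TOMM7, a subunit of the mitochondrial import complex (r = 0.991), over the 8 libraries. Those most like MT1X were HLA-B, METTL21A, S1PR2, GTF2IRD2 and the copper transporter gene SLC31A2, with r of 0.984 to 0.99. Those most like SLC30A1 included PDZD2, USP22, BTBD9 and POLR3A, with r of 0.955 to 0.969.

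**Figure D5:**
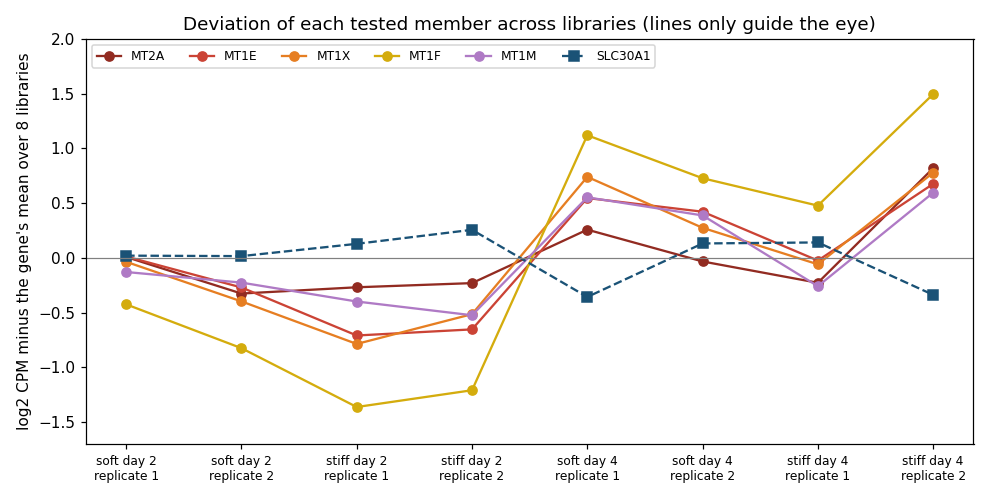
Lines show each tested member's log2 CPM minus its own mean over the 8 libraries, with libraries on the horizontal axis and lines only to guide the eye. The 5 metallothioneins move together and are highest in replicate 2 of the stiff matrix at day 4, and SLC30A1 (dashed) is lowest in that library and in replicate 1 of the soft matrix at day 4 (14.6 and 14.4 CPM).

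The other metallothionein genes were nearly silent. Of 14 further family genes and pseudogenes listed, 9 were in the table and only the pseudogene MT1L was tested, at 0.503 to 1.15 CPM. MT1L was not called in any comparison, with a log2 fold change of 0.89 on the stiff and 0.52 on the soft matrix at day 4 against day 2, and of -0.23 at day 2 and 0.14 at day 4 between the matrices. MT3 and MT4 had 0 counts in every library. MTF1, the zinc sensor, was at 24.4 and 25.8 CPM on the soft and 28.1 and 28.4 CPM on the stiff matrix at day 2, and at 23.3 and 24.3 CPM on the soft and 27.2 and 16.7 CPM on the stiff matrix at day 4. Neither MTF1 nor MTF2 was called in any of the 6 comparisons. Their log2 fold changes between the matrices were 0.17 and -0.032 at day 2, and -0.11 and -0.18 at day 4.

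The other zinc transporters were followed by family. Of 6 further SLC30 genes tested, 4 rose and none fell on the soft matrix from day 2 to day 4. On the stiff matrix 3 rose and none fell. Of all genes, 27.4% were called on the soft and 27.6% on the stiff matrix. SLC30A7, which brings zinc into the Golgi, rose by 1.38 on the log2 scale on the soft (SE 0.152) and 0.93 on the stiff matrix (SE 0.151). SLC30A9 rose by 0.75 and 0.69, SLC30A5, another carrier of the early secretory pathway, by 0.45 and 0.41, and its partner SLC30A6 by 0.69 on the soft matrix. SLC30A6 on the stiff matrix (0.47) did not pass, nor did SLC30A3 (0.10 and 1.02) and SLC30A4 (-0.70 and -0.71) on the soft and stiff matrix. The median of the 6 was 0.57 on the soft and 0.58 on the stiff matrix. Between the matrices none of the 6 passed, with values from -0.21 (SLC30A3) to 0.18 (SLC30A7) at day 2 and from -0.27 (SLC30A7) to 0.71 (SLC30A3) at day 4.

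Of 10 SLC39 genes tested, which bring zinc into the cytosol, 3 rose and 1 fell on the soft matrix and 2 rose and 1 fell on the stiff matrix from day 2 to day 4, near the 27.4% and 27.6% of all genes called. SLC39A9 rose by 0.67 on the soft and 0.52 on the stiff matrix. SLC39A8, an importer of zinc and manganese, rose by 0.82 and SLC39A11 by 0.53 on the soft matrix, and SLC39A7, which releases zinc from the endoplasmic reticulum, rose by 0.56 on the stiff matrix. SLC39A13 fell by 0.96 on the soft and 0.91 on the stiff matrix on the log2 scale. The median of the 10 was 0.26 and 0.13. Between the matrices none passed, with values from -0.15 (SLC39A13) to 0.26 (SLC39A10) at day 2 and from -0.33 (SLC39A11) to 0.40 (SLC39A3) at day 4.

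Some genes beside the cluster on chromosome 16 were followed as neighbours of the same region. NUDT21 rose from day 2 to day 4 by 0.82 on the soft and 0.74 on the stiff matrix on the log2 scale. BBS2 did not pass between the matrices, with stiff against soft values of -0.28 at day 2 and -0.31 at day 4, nor did NUP93, with 0.019 and 0.22.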

How the data were processed

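The authors trimmed reads with Trim Galore, mapped them to hg19 with STAR 2.7.1a and deposited counts per gene made with htseq-count. The gene annotation, strand setting and read length are not given in the sources used here. The deposited FPKM were made by the authors from the same counts. Over 15016 genes the ratio of count to FPKM was the product of a gene length and a library factor to within a relative 9.1e-15, and the library factors were median-of-ratios size factors, which differed from total counts by up to 15.6%.

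Members and gene lists were chosen with earlier results of these data known. Text names every member, each list gene called in any comparison, the largest rise and fall per list between the matrices at each day, and for MT2A, MT1X and SLC30A1 the 5 genes with the highest Pearson correlation (mean log2 CPM of at least 1). Tests used edgeR 4.0.16 (R 4.3.3) on counts: filterByExpr kept 14570 genes, TMM factors were 0.8704 to 1.08, and all 8 libraries entered 1 quasi-likelihood fit of 4 conditions. Genes were called at an adjusted p under 0.05. Standard errors came from dividing each log2 fold change by the root of its F statistic, and 2 was the prior count for log2 CPM. A library total of 19955975 to 27263935 counts and 2 libraries per condition limit precision. Alternatives used DESeq2 1.42.0, limma 3.58.1, other scalings and filters, separate fits, a replicate block and each library left out; a crossed block, voom quality weights, a length offset and leaving out both stiff libraries of day 4 were chosen after seeing the data. Transcripts and positions came from GENCODE v44lift37, and shared windows from BLAST 2.17.0 hits that matched without a mismatch. Results for some genes are not reported here.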

Additional observations from a re-analysis of the deposited data

How the results depend on the processing

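Of the members called, day 4 against day 2 on the stiff matrix was most open to the processing: 3 became 0 in a fit of the 4 stiff libraries alone and 5 with the length offset, and ranged from 0 to 6 with 1 library left out, the 6 without replicate 1 of the stiff matrix at day 4. On the soft matrix 1 became 4 in a fit of the 4 soft libraries alone, 3 with the crossed block (31.2% of all genes), 4 with voom and quality weights (49.1%), 4 without both stiff libraries of day 4 (54.4%) and 4 with the length offset (41.8%), and ranged from 0 to 4 with 1 library left out. For stiff against soft at day 2, 0 became 3 in a fit of the 4 libraries of that day, 1 with voom and quality weights (1.28% of all genes) and 1 without both stiff libraries of day 4 (0.814%), and ranged from 0 to 1 with 1 library left out. With 1 library left out the number ranged from 0 to 2 for stiff against soft at day 4, from 0 to 3 over both days (the 3 without replicate 2 of the stiff matrix at day 4, with 6.83% of all genes) and from 0 to 3 for the interaction. A library left alone in its condition was assumed to vary like those of the other groups. Fits without the stiff libraries of day 4 estimate the spread from other libraries, and the cause of the other shifts was not tested.

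Without scaling factors the sign turned for MT1F (-0.010), SLC30A1 (-0.092), FTL (-0.0047), KRT19 (-0.066) and TEK (-0.086) in stiff against soft at day 4, and for MT2A (-0.022) in stiff against soft over both days, and for MT1M (-0.035) in the interaction. With the length offset the sign turned for MT1F (-0.033), SLC30A1 (-0.023), FTL (-0.049), KRT19 (-0.063) and VWF (0.018) in stiff against soft at day 4, and for MT1M (-0.14) in the interaction. With limma on log2(FPKM + 1) the sign turned for MT1M (-0.018) in the interaction. With limma on log2(FPKM + 0.1) the sign turned for MT1M (-0.014) in the interaction. With limma on log2(FPKM + 1) and no filter the sign turned for MT1M (-0.018) in the interaction, and for TEK (-0.014) in stiff against soft at day 4. With voom and quality weights the sign turned for MT1M (-0.038) in the interaction, and for TEK (-0.077) in stiff against soft at day 4. With the replicate block the sign turned for TEK (-0.039) in stiff against soft at day 4. With the crossed block the sign turned for TEK (-0.030) in stiff against soft at day 4. With 1 library left out, log2 fold changes whose sign turned ranged, in stiff against soft at day 2, from -0.26 to 0.077 for MT2A, -0.12 to 0.30 for HSPB1, -0.15 to 0.081 for MTF2, -0.27 to 0.90 for PTPRC, -0.45 to 0.095 for SLC30A3 and -1.63 to 0.029 for VWF. At day 4 they ranged from -0.58 to 0.26 for MT1X, -0.24 to 0.28 for SLC30A1, -0.45 to 0.57 for MT1F, -0.50 to 0.20 for MT1E, -0.74 to 0.13 for MT1M, -0.34 to 0.71 for MT2A, -0.29 to 1.10 for ATOX1, -0.99 to 0.16 for CD14, -0.56 to 0.29 for CRYAB, -0.30 to 0.48 for FTL, -0.47 to 1.28 for HSPE1, -0.36 to 0.68 for KRT19, -0.045 to 0.34 for MT1L, -0.50 to 0.20 for MTF1, -0.45 to 0.058 for MTF2, -0.037 to 0.75 for SLC39A3, -0.72 to 0.49 for TEK, -0.34 to 0.73 for TXN and -0.75 to 0.46 for VWF. Over both days they ranged from -0.032 to 0.23 for SLC30A1 and -0.22 to 0.30 for MT2A. In the interaction they ranged from -0.44 to 0.43 for MT1M, -0.41 to 0.11 for SLC30A1, -0.13 to 0.71 for MT1X and -0.23 to 0.81 for MT2A. In day 4 against day 2 on the soft matrix the range was -0.38 to 0.086 for SLC30A1. None of these values passed the adjusted test in the main results. Of 756 values of members under alternatives, 665 kept their direction and side of the threshold, 33 turned their sign, 41 passed the threshold only under the alternative and 17 lost it. Of 2159 values of list genes, 1854, 33, 45 and 227 did so, and 0 of those that turned were values of day 4 against day 2.

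Same-numbered libraries did not deviate together: the correlation of deviations from the condition mean was -0.0363 between the matrices at day 2, -0.49 at day 4, 0.0765 between days on the soft and 0.0242 on the stiff matrix, so the numbers were not taken to pair the libraries. With the replicate block 1 member was called on the soft (18% of all genes) and 2 on the stiff matrix (17.5%) from day 2 to day 4 and 0 in the other comparisons. With the pairing crossed at day 4 the numbers were 3 on the soft and 3 on the stiff matrix (31.2% of all genes on each). Depth limits MT1A and MT1G, which did not pass the filter of the main fit and were not followed under the alternatives. With 2 libraries per condition, differences between the matrices that lie within the intervals given are not excluded.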

Other observations

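Other metal and stress genes were compared from day 2 to day 4, where 27.4% of all genes were called on the soft and 27.6% on the stiff matrix. HMOX1, the heme oxygenase that frees iron from heme, fell by 1.58 on the log2 scale on the soft (SE 0.168, adjusted p = 0.00172 by edgeR) and by 2.52 on the stiff matrix (SE 0.174, adjusted p = 0.000737), and the iron exporter gene SLC40A1 rose by 1.08 on the soft matrix. These were the calls among 9 iron genes tested, 2 on the soft and 1 on the stiff matrix. Of 12 copper genes tested, ATP7B, a copper exporter, fell by 0.99 on the soft and 1.38 on the stiff matrix, and no other was called, so the copper list lay under the share of all genes. Of 13 heat shock genes, HSPA1A fell by 1.02 and 1.34, HSPA1B by 1.02 and 1.37 and HSF1 by 0.72 and 0.77 on the soft and stiff matrix. HSPA6 fell by 1.93 on the stiff matrix, where its mean at day 4 was 1.36 CPM with a replicate ratio of 3.62. CRYAB rose by 2.92 and 2.36 from low levels, with means of 0.179 and 0.231 CPM at day 2 and 1.38 and 1.21 CPM at day 4. HSPA1A and HSPA1B are near-identical copies, so their counts are not independent. Of 9 glutathione and thioredoxin genes, SLC7A11 rose by 0.86, TXNRD1 by 0.71 and GSR by 0.40 on the soft matrix and none was called on the stiff matrix, and whether the matrices differ was not called for any of them. Of 10 glucocorticoid-responsive genes, PER1 fell by 0.63 on the stiff matrix and none was called on the soft matrix. Of 9 stellate markers tested, 3 were called on each matrix, near the share of all genes: ACTA2 rose by 0.97 and 0.84, VIM by 1.12 and 0.96 and SPARC by 0.68 and 0.73 on the soft and stiff matrix. COL1A1, of the same list, was at -0.47 and -0.57 and did not pass. Of 3 immune markers tested, PTPRC rose by 2.06 and 1.56, while CD14 (-0.40 and 0.029) and CD68 (0.23 and 0.17) did not pass. PTPRC was low throughout, with means of 0.606 and 0.818 CPM at day 2 and 2.54 and 2.41 CPM at day 4 on the soft and stiff matrix. Of 3 cholangiocyte markers tested, SOX9 rose by 1.45 and 0.87, while KRT7 (-0.11 and 0.27) did not pass.

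Between the matrices no gene of these lists passed the adjusted test at either day, and the largest differences are given as values of the log2 fold change. At day 2 these were -0.15 for SLC31A2 and 0.18 for ATP7A (copper), -0.063 for SLC11A2 and 0.80 for HMOX1 (iron), -0.94 for CEBPD and 0.34 for DUSP1 (glucocorticoid-responsive), 0.073 for HSPB1 and 0.90 for HSPA6 (heat shock), and -0.39 for GPX4 and 0.31 for GCLM (glutathione). At day 4 they were -0.36 for PRNP and 0.56 for ATOX1, -0.47 for SLC40A1 and 0.14 for FTL, -0.86 for CEBPD and 0.91 for DUSP1, -0.20 for CRYAB and 0.64 for HSPE1, and -0.37 for SLC7A11 and 0.29 for TXN. Among cell type markers they were -1.06 for COL3A1 and 0.40 for VIM, -0.56 for SERPINA1, -0.57 for VWF and 0.10 for TEK, -0.76 for CD14 and 0.43 for PTPRC, and -0.75 for KRT19 and 0.21 for SOX9 at day 2. At day 4 the markers gave -1.58 for COL3A1 and 0.78 for TAGLN, -0.43 for SERPINA1, -0.068 for VWF and 0.0085 for TEK, -0.33 for CD14 and 0.21 for CD68, and -0.37 for SOX9 and 0.052 for KRT19.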
